A study of Mus musculus with 4 samples.

Results

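The genes described here encode stromal niche factors and the regulators that go with them: Cxcl12, Kitl, Lepr, Foxc1, Ebf1, Ebf3, Grem1, Angpt1, Il7 and Vcam1. They were chosen by name, and their chromatin was read at every ATAC-seq peak that overlapped one of the 10 genes or the 20 kb upstream of its start. This gave 109 of 117282 peaks. Of these, 49 belonged to Ebf1, 15 to Angpt1, 11 to Ebf3, 9 to Kitl, 5 each to Lepr and Il7, 4 each to Cxcl12, Foxc1 and Grem1, and 3 to Vcam1. By position, 11 peaks lay within 1 kb of a gene start, 6 over other exons, 75 in introns and 17 upstream. Accessibility was measured in bone mesenchymal stem cells (MSCs) of old mice, aged 18-22 months, and of young mice, aged 3-5 months, with 2 samples per age and all 4 samples cultured only at 2% O2. For its MSCs, the study describes endosteal cells of C57BL/6N hind limbs, sorted as CD45-/Ter-119-/Sca-1+/CD140a+. The labels do not say whether the samples of one age came from separate animals or cultures, so the p-values below measure the spread between these samples, which may be technical.

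Stromal cells of the bone marrow keep blood stem and progenitor cells in place and alive. They do so with secreted or membrane-bound signals such as CXCL12, stem cell factor (the product of Kitl), angiopoietin-1 and interleukin-7, and with the adhesion molecule VCAM-1. The leptin receptor marks the perivascular stromal cells that are a main source of these signals in adult marrow, and the transcription factors FOXC1, EBF1 and EBF3 are needed to keep such cells in their niche-supporting state. Gremlin-1, a secreted antagonist of bone morphogenetic proteins, marks skeletal stem cells. ATAC-seq tags DNA that a transposase can reach, so a higher value at a peak means more open chromatin there. It does not measure how much of a gene's RNA is made.

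Stretches of DNA are shown where the results below turn on them. The 3 windows hold the Kitl peak with the lowest adjusted p of all 109 peaks, the Lepr peak with the largest negative difference outside Il7, and the Grem1 upstream peak with the largest difference in that gene. The 2 promoters belong to Grem1 and Ebf3, whose main start peaks had the most negative differences. Windows are the central 300 bases of a peak on the plus strand of GRCm38, and promoters are the 250 bases before the RefSeq start (GRCm38.p6) on the strand of the gene, which is the minus strand for both. Capitals mark the searched letters named after each set.
Kitl intron, chr10:100025701-100026000: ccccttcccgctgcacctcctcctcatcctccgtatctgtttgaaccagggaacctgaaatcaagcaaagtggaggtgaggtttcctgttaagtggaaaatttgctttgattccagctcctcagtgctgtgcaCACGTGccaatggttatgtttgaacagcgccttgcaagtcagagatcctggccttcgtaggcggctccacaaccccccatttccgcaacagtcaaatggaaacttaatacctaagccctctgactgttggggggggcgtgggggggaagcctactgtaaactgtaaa
Lepr upstream, chr4:101707951-101708250: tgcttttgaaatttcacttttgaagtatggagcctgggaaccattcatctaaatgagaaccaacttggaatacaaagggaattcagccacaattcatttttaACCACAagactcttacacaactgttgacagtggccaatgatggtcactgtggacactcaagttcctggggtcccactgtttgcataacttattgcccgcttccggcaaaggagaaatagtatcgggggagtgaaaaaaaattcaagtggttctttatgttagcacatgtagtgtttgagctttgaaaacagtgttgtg
Grem1 upstream, chr2:113768751-113769050: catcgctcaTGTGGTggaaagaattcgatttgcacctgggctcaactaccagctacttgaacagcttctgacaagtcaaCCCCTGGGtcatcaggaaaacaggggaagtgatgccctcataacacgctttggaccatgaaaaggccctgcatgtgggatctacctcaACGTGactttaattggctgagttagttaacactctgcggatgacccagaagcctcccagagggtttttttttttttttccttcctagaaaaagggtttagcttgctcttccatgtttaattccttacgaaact
Grem1 promoter, chr2:113758649-113758898: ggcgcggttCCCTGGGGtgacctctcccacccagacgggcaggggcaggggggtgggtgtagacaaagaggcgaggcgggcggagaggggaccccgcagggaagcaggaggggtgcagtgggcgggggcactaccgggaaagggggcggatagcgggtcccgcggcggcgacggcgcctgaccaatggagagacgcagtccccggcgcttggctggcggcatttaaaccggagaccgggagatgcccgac
Ebf3 promoter, chr7:137314446-137314695: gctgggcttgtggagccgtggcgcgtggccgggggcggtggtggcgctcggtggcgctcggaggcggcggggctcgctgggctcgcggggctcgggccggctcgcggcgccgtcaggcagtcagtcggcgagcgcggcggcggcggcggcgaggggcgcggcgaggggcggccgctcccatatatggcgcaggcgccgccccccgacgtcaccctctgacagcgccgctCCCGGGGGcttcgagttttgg
In the Kitl window the capitals mark the HIF letters ACGTG, which are present on both strands and overlap an E-box (CANNTG). In the Lepr window they mark the RUNX letters TGTGGT on the minus strand. The Grem1 window holds the RUNX letters, the EBF letters CCCNNGGG and the HIF letters, in that order, and each promoter holds the EBF letters once. These matches describe the sequence and do not show that a factor was bound. Across all 32851 RefSeq promoters of the same length, 11.8% hold the EBF letters. The promoters matched at Lepr, Cxcl12, Kitl, Ebf1 and Foxc1 hold none. The GC content of the promoters shown is 72% at Grem1 and 80% at Ebf3.

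Over the central 300 bases of the 109 peaks, 9 sets of letters were searched on both strands and compared with all 117279 peaks outside the mitochondrial chromosome. The EBF letters were found in 4 windows (3.67%, against 9.53% of all peaks), 2 of them in Ebf1, 1 in Grem1 and 1 in Il7. The FOX letters TGTTTAC were found in 9 windows (8.26%, against 4.04%), 5 of them in Ebf1 and 2 in Lepr. The RUNX letters were in 27 windows (24.8%, against 26.0%), the AP-1 letters TGANTCA in 22 (20.2%, against 21.5%), the TEAD letters GGAATG in 16 (14.7%, against 20.9%) and the HIF letters in 13 (11.9%, against 15.1%). The E-box letters were in 82 windows (75.2%, against 79.1%), the NF-kB letters GGANNTTCC in 4 (3.67%, against 3.68%) and the CTCF letters AGGGGGCGC in 1 (0.917%, against 0.443%). The median GC content was 44.3% in the members' windows and 46.7% in those of all peaks. These shares were not tested.

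The deposited value of a peak is its count divided by the library total and multiplied by 10000000. The authors named it RPKM, but no division by peak length had been made, so levels of different genes are compared here only per kb of peak. Library totals ranged from 28259470 to 32559794 counts. The peaks held 43.8% and 50.3% of the counts of the old samples and 57.5% and 62.9% of those of the young samples. The values were therefore also divided by relative log expression (RLE) factors, between 0.813 and 1.15, which centre the typical peak. Of the counts in peaks, the mitochondrial chromosome held 15.7% in old replicate 1, 6.52% in old replicate 2, and 13.5% and 14.5% in the young samples. The part of this in the results was not tested. On the values as deposited, the median log2 fold change of old over young was -0.27 over all peaks and -0.26 over the 109 peaks; after RLE scaling it was 0.0011 and 0.017. All differences below are relative to that overall shift. The sort markers Pdgfra and Ly6a had a peak at their start in all samples, as did all 9 stromal markers. Among 14 blood markers, 4 had a start peak (Spi1, Tal1, Ikzf1 and Lyz2) and 10, including Ptprc, had none. The summed start value per kb over the blood list was 49.4 to 58.9 in old and 51.4 to 62.4 in young MSCs, over the stromal list 165 to 199 and 161 in both young samples. Endothelial markers had a start peak in 5 of 8 genes (without one: Cdh5, Tie1 and Emcn), with sums of 95.9 and 96.1 in old and 101 and 107 in young MSCs. Osteoblast markers had one in 5 of 5 genes (64.0 and 68.5 against 69.0 and 71.2). Adipocyte markers had one in 2 of 4 genes, Adipoq and Plin1 being without, and their sums were 26.0 and 27.7 in old and 19.5 and 22.0 in young MSCs. The part of these markers in the results was not tested.

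All 10 niche genes had an accessible start in all 4 samples. Per kb of start peak, the mean RLE-scaled level was 46.4 at Angpt1, 35.5 at Ebf3, 29.4 at Il7, 23.8 at Grem1, 22.6 at Ebf1, 20.8 at Kitl, 19.2 at Cxcl12, 17.4 at Foxc1, 14.3 at Vcam1 and 8.51 at Lepr. The median over the 14775 protein-coding genes with a start peak was 31.1, so that only Angpt1 and Ebf3 lay above it. In this order, 8 of the 9 pairs of neighbours had overlapping ranges over the 4 samples. The exception was Lepr, whose levels of 7.79 to 9.14 lay below the 12.4 to 15.9 of Vcam1. Lepr was also weak over its whole window: its 5 peaks summed to 58.0, the 29.7th percentile of 21728 protein-coding genes. The other extreme was Ebf1, where 49 peaks put the gene at the 99.8th percentile by number of peaks, in a window of 411 kb that is itself at the 98.3rd percentile of length. The start peaks of Cxcl12 and Foxc1 were 20.5 and 19.8 kb wide and spanned the whole gene, so their level per kb is an average over that width. By the summed value of the window, Cxcl12 lay at the 83.9th and Foxc1 at the 81.7th percentile.

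**Figure D1:**
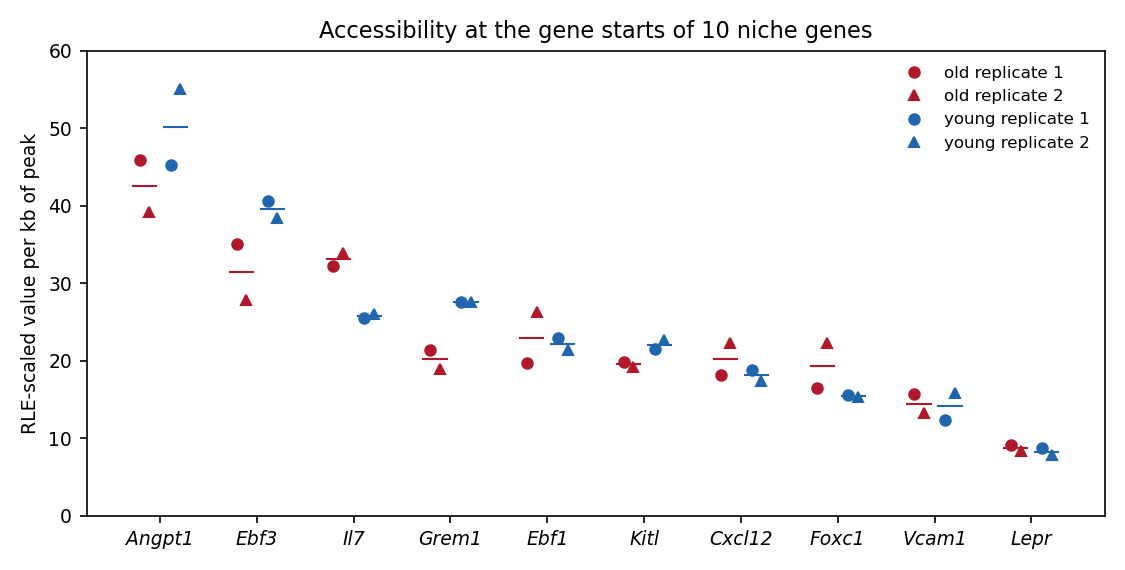
RLE-scaled value per kb of start peak in each sample (y axis), by gene in order of the mean (x axis); short bars are the mean of the 2 samples of an age. Angpt1 stands highest with a mean of 46.4 and Lepr lowest with 8.51, and the old samples lie below the young samples at Ebf3, Grem1 and Kitl and above them at Il7 and Foxc1. Of all 16213 peaks within 1 kb of a protein-coding start, both old samples lay below both young samples at 4167 and above at 2551.

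Whether these genes differed in accessibility between old and young MSCs was tested with limma over all 117282 peaks. None of the 109 peaks passed an adjusted p under 0.01, in a fit that called 0.0307% of all peaks lower and 0.0256% higher in old MSCs. At an adjusted p under 0.05, 0 members were lower (0.771% of all peaks) and 1 was higher (0.351% of all peaks), a short peak in an intron of Kitl. At an unadjusted p under 0.05, 10 members were lower, or 9.17% against 8.87% of all peaks, and 11 were higher, or 10.1% against 7.49%. Both old samples lay below both young samples at 24 members (22.0%, against 24.2% of all peaks) and above them at 24 (22.0%, against 23.2%), while the ages overlapped at 61. These shares were near those of all peaks, and 46.8% of the members had a lower mean in old MSCs, against 49.9% of all peaks. Leaving out either old sample raised the number of members called at 0.01 and also the number called over all peaks. Such fits rest on 1 old sample, so their counts are not compared here. The members over 1 on the log2 scale, 4 negative and 3 positive, were 300 to 1300 bp wide, with a median of 600 bp, where the median over all 109 members was 1300 bp. In simulated data for the same comparison, with 117282 peaks, the fit recovered 99.0% of peaks changed by 2 on the log2 scale. It recovered 30.0% of those changed by 1, so differences near 1 could be missed at this number of samples. The simulation gave every peak the same dispersion, and these shares need not hold for the weakest members. The short Kitl peak differed by 2.61 and did not pass 0.01 (limma adjusted p = 0.0163).

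**Figure D2:**
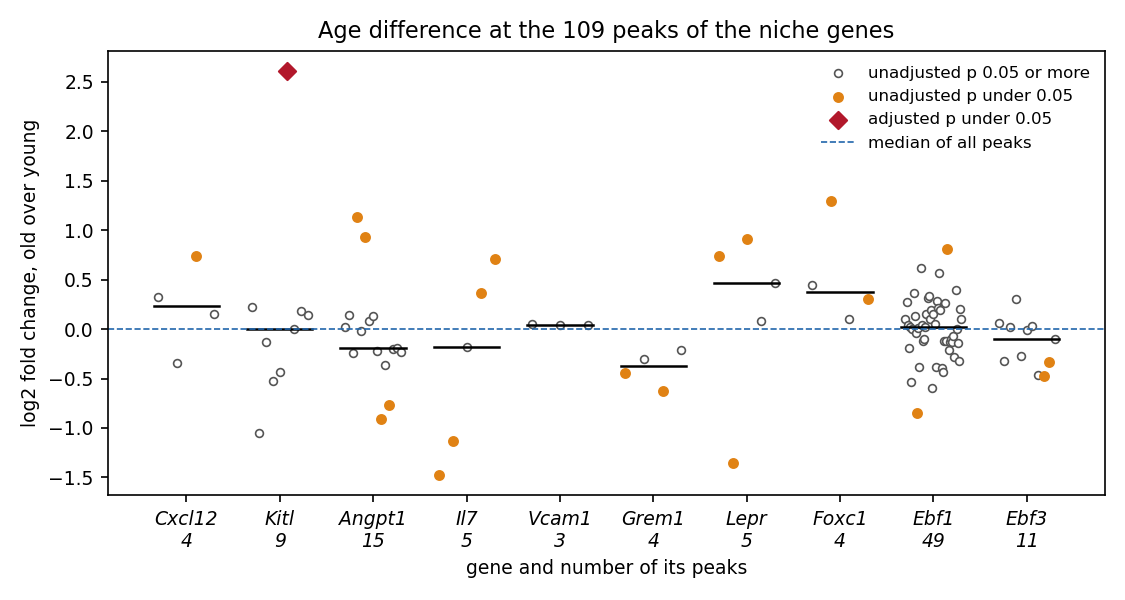
Log2 fold change of old over young MSCs (y axis, RLE-scaled values + 1) at each of the 109 peaks, grouped by gene in order of position (x axis, with the number of peaks); black bars are the median of a gene and the dashed line is the median of all peaks. The single diamond at 2.61 is the Kitl peak, and the 3 Vcam1 peaks lie between 0.036 and 0.056. Grem1 has 4 of 4 peaks below 0, where 49.9% of all peaks lie.

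Among the ligands, Cxcl12, which holds blood stem cells in the marrow through CXCR4, was covered by a single peak of 20.5 kb that spans the whole gene. Only 197 of all peaks were wider. Its RLE-scaled value was 372 and 457 in the old samples and 386 and 357 in the young samples. The ages overlapped there, with a log2 fold change of 0.15 (SE 0.13, limma adjusted p = 0.601) that turned to -0.14 on the values as deposited. Upstream of Cxcl12, the peak 8.13 kb before the start had 17.2 and 16.2 in old and 9.62 and 9.50 in young MSCs. Both old samples were above both young samples, but the difference of 0.74 did not pass the test (limma adjusted p = 0.198). The other upstream peaks of Cxcl12 differed by 0.32 and -0.35.

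Kitl, whose product is the ligand of the receptor KIT on blood stem cells, held the member with the lowest adjusted p. This peak of 300 bp lay in an intron, 10.2 kb downstream of the start (chr10:100025701-100026000), and is the Kitl window shown above. It held 18 and 20 counts in the old samples and 2 and 0 counts in the young samples, both at or under the floor of 3 counts. The RLE-scaled values were 7.75 and 6.10 in old and 0.663 and 0 in young MSCs, with a log2 fold change of 2.61 (SE 0.47, limma adjusted p = 0.0163). From the summed counts per library total, old was 17.9 times young, with a 95% exact interval of 4.63 to 153 for counting error only.
The Kitl peak shared its edge with a 1100 bp peak, chr10:100024601-100025700, at which the order of the ages was the opposite. The 1100 bp peak had 9.90 and 9.15 in old and 12.3 and 14.2 in young MSCs, and the log2 fold change was -0.44 (limma adjusted p = 0.492). When both were merged, the 1400 bp region had 17.6 and 15.2 in old and 12.9 and 14.2 in young MSCs, and the log2 fold change was 0.26 (SE 0.28, limma adjusted p = 0.697). The call at 0.05 for the short peak was thus lost when abutting peaks were merged. It was also lost with plain moderation (limma adjusted p = 0.0845) and without young replicate 1 (0.0524) or young replicate 2 (0.192), and a filter on weak peaks left this peak out. Over all peaks, 4522 or 3.86% abut another peak, while among the 66 peaks called at an adjusted p under 0.01 the share was 36.4%; 4 members, all in Kitl, abut another.

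**Figure D3:**
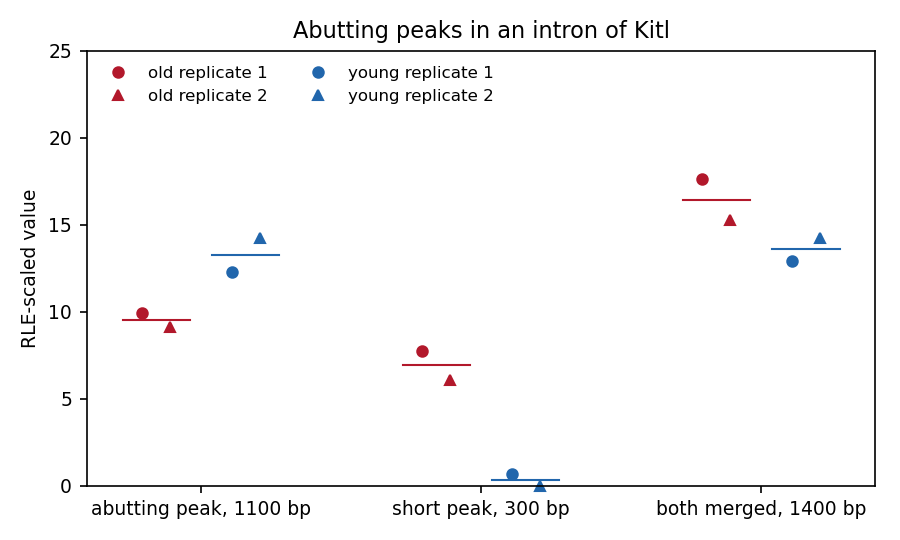
RLE-scaled value (y axis) in each sample at the abutting peaks in the intron of Kitl and at the merged region (x axis); short bars are the mean of the 2 samples of an age. The 300 bp peak has 7.75 and 6.10 in old and 0.663 and 0 in young MSCs, the 1100 bp peak has the opposite order, and the merged region differs by 0.26 on the log2 scale.

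The start of Kitl was open at a similar level in both ages. Its main start peak had 88.6 and 86.3 in old and 96.2 and 95.0 in young MSCs, and the log2 fold change was -0.13 (SE 0.17, limma adjusted p = 0.766). The abutting peak just upstream, 400 bp wide, held 2, 1 and 1 counts in old replicates 1 and 2 and young replicate 1, and 23 counts in young replicate 2. A single young sample therefore carried its log2 fold change of -1.05 (limma adjusted p = 0.442), which became 0.23 without that sample. The intronic peak 50.1 kb downstream was the densest of the gene, at 30.4 per kb, with 73.2 and 80.2 in old and 67.3 and 71.5 in young MSCs. Summed over its 9 peaks, Kitl overlapped between the ages, with 343 and 321 in old and 312 and 338 in young MSCs.

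Angpt1 encodes angiopoietin-1, the ligand of the receptor TIE2 (Tek) on endothelial and blood stem cells. Its start peak was the densest of all 109 peaks. The start values were 198 and 169 in old and 195 and 237 in young MSCs, which overlap (log2 fold change -0.23, limma adjusted p = 0.476). The introns of Angpt1 held differences of both signs. Of its 15 peaks, 9 overlapped between the ages. Both old samples lay below both young samples at 3 peaks and above at 3, where 24.2% and 23.2% of all peaks did so. An intronic peak 170 kb into the gene had 14.6 and 18.0 in old and 6.30 and 7.42 in young MSCs, and the log2 fold change was 1.14 (SE 0.30, limma adjusted p = 0.0698). A peak 130 kb into the gene had 12.5 and 16.2 in old and 5.64 and 8.61 in young MSCs, with a difference of 0.93. At the peaks 48.3 and 34.9 kb into the gene the order was the opposite. The peak at 48.3 kb had 30.6 and 15.6 in old and 38.8 and 45.1 in young MSCs, and the log2 fold change was -0.91 (SE 0.28, limma adjusted p = 0.104). The peak at 34.9 kb had 18.1 and 8.84 in old and 18.6 and 26.7 in young MSCs, with a difference of -0.77. None of these 4 peaks passed the test. The negative values depended on which old sample was kept. Without old replicate 2 they were -0.44 at 48.3 kb and -0.29 at 34.9 kb, while without old replicate 1 they were -1.37 and -1.24, with limma adjusted p = 1.22e-06 and 0.00108. The other 10 intronic peaks lay between -0.36 and 0.14.

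Il7 encodes interleukin-7, the growth factor of developing B and T cells. Its 5 peaks had means on both sides, and none passed the test. The start peak had 155 and 163 in old and 122 and 125 in young MSCs, and the log2 fold change was 0.36 (SE 0.15, limma adjusted p = 0.255). The upstream peak, 17.4 kb before the start, had 23.7 and 12.2 in old and 8.96 and 11.3 in young MSCs, a difference of 0.71. In the introns, the peak 30.0 kb into the gene had 2.15 and 3.96 in old and 13.9 and 7.12 in young MSCs, and the log2 fold change was -1.48 (SE 0.40, limma adjusted p = 0.0730). The peak at 13.1 kb had 4.73 and 5.18 in old and 8.96 and 16.0 in young MSCs, a difference of -1.13 (limma adjusted p = 0.112). At these 4 peaks the RLE-scaled values of the ages did not overlap, and at the remaining one, with a difference of -0.18, they did. Both old samples lay below at 2 of the peaks and above at 2, where 24.2% and 23.2% of all peaks did so. On the values as deposited the ages overlapped at the start (126 and 164 against 131 and 143, log2 fold change 0.073) and at the upstream peak (19.2 and 12.3 against 9.55 and 12.9).

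Vcam1, the adhesion molecule bound by the integrin made of Itga4 and Itgb1, had the smallest median absolute log2 fold change over its peaks, 0.038. For the summed peaks the difference was 0.048, against 0.025 at Ebf1 and 0.030 at Kitl, and this order was not tested. The Vcam1 start peak had 70.6 and 59.5 in old and 55.7 and 71.5 in young MSCs. Its densest peak lay over coding exons, with 136 and 108 in old and 108 and 126 in young MSCs. All 3 Vcam1 peaks overlapped between the ages, with log2 fold changes of 0.036 to 0.056 (SE 0.17 to 0.20) that were negative for all 3 on the values as deposited.

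Grem1 was the one gene with a lower mean in old MSCs at all of its peaks, where 49.9% of all peaks had a lower mean. Its start peak, which covers untranslated exon sequence and the Grem1 promoter shown above, had 85.6 and 75.6 in old and 110 in both young samples. Both old samples lay below both young samples, with 80.6 ± 7.07 against 110 ± 0.0179 (SD, n = 2 each). The log2 fold change of -0.45 (SE 0.17, limma adjusted p = 0.205) did not pass. The upstream peak at 10.3 kb, whose window is shown above, had 26.2 and 18.9 in old and 32.5 and 37.4 in young MSCs, and the log2 fold change was -0.62 (SE 0.24, limma adjusted p = 0.209). The densest peak, 6.70 kb upstream, had 100 and 77.8 in old and 103 and 115 in young MSCs, a difference of -0.30. The farthest upstream peak overlapped between the ages and differed by -0.21.

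**Figure D4:**
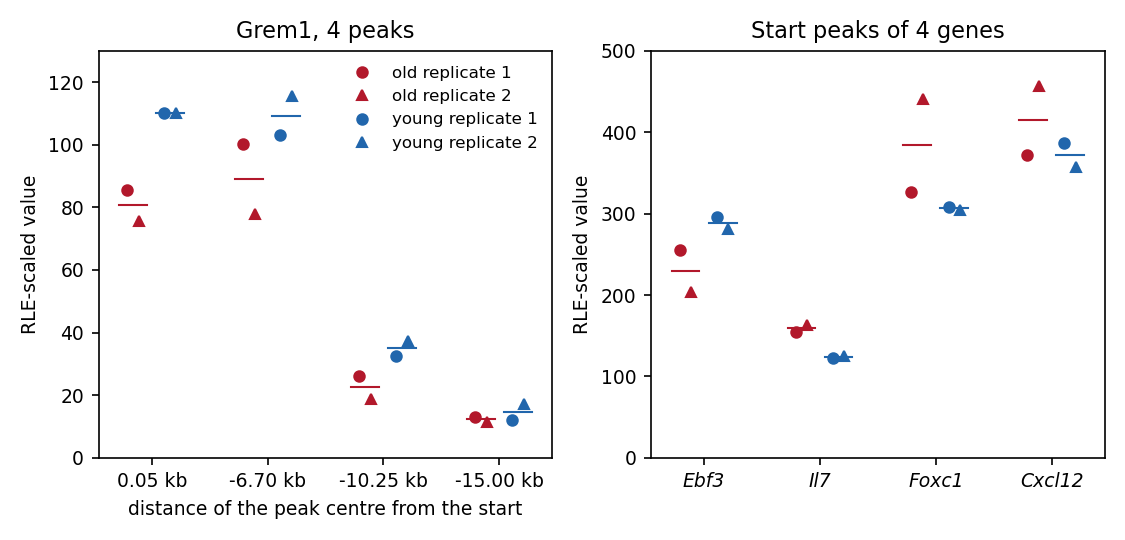
RLE-scaled value (y axes) in each sample at the 4 peaks of Grem1 by distance of the peak centre from the start (left) and at the start peaks of Ebf3, Il7, Foxc1 and Cxcl12 (right); short bars are the mean of the 2 samples of an age. At 3 of the 4 Grem1 peaks and at the Ebf3 start both old samples lie below both young samples, at the Il7 and Foxc1 starts both lie above, and at Cxcl12 the ages overlap. Over all peaks, both old samples lie below at 24.2% and above at 23.2%. Among the 16213 peaks within 1 kb of a protein-coding start, they lie below at 4167 and above at 2551.

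Lepr, the receptor that marks perivascular niche cells, was open at only a low level at its start, with 7.32 and 6.71 in old and 6.97 and 6.23 in young MSCs. The ages overlapped (log2 fold change 0.077, limma adjusted p = 0.937), and the value as deposited turned to -0.17. Its upstream peaks differed more and in both directions. The peak 9.30 kb upstream, shown above, had 4.73 and 3.66 in old and 8.63 and 17.2 in young MSCs, and the log2 fold change was -1.36 (SE 0.37, limma adjusted p = 0.0728). The peak at 1.80 kb had 11.6 and 12.8 in old and 7.63 and 4.75 in young MSCs, a difference of 0.91. The peak at 17.9 kb was the densest of the gene and had 19.4 and 23.8 in old and 10.3 and 15.1 in young MSCs, a difference of 0.74. None passed the test, although the ages did not overlap at any of the 3. Over all peaks, both old samples lay below both young samples at 24.2% and above at 23.2%.

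Foxc1, a forkhead factor of niche stromal cells, had a mean higher in old MSCs at all 4 peaks, where 49.9% of all peaks had a lower mean. Its start peak was 19.8 kb wide, with 216 peaks wider, covered the whole gene and reached the gene Gmds. The start values were 327 and 440 in old and 308 and 305 in young MSCs, so that both old samples were above, old replicate 2 by the larger margin. The log2 fold change was 0.31 (SE 0.14, limma adjusted p = 0.289), and 0.020 on the values as deposited. It was 0.52 without old replicate 1 and 0.094 without old replicate 2. A weak upstream peak at 8.88 kb, which also overlaps the gene Gm11379, had 14.6 and 9.15 in old and 5.64 and 2.97 in young MSCs. This was the largest difference of the gene, 1.30 (SE 0.37, limma adjusted p = 0.0876). The peak 5.38 kb upstream overlapped between the ages, with a difference of 0.10 that was negative on the values as deposited, and the one at 13.9 kb differed by 0.44.

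The early B-cell factors EBF1 and EBF3 both act in niche stromal cells. At Ebf3, 7 of 11 peaks had a lower mean in old MSCs, and both old samples lay below both young samples at 5 peaks and above at 0, where 24.2% and 23.2% of all peaks did so. The Ebf3 start peak had 256 and 203 in old and 296 and 281 in young MSCs, and the log2 fold change was -0.34 (SE 0.14, limma adjusted p = 0.249). It was -0.50 without old replicate 1 and -0.17 without old replicate 2. At Ebf1, 35 of 49 peaks overlapped between the ages, 6 lay below and 8 above, to be read against the same 24.2% and 23.2%. No Ebf1 or Ebf3 peak passed the test, and a difference between the genes was not tested. The Ebf1 start had 134 and 178 in old and 156 and 146 in young MSCs, and the log2 fold change was 0.039 (SE 0.17, limma adjusted p = 0.934), and -0.25 on the values as deposited. The densest Ebf1 peak, 329 kb into the gene, had 180 and 189 in old and 198 and 205 in young MSCs, a difference of -0.13.
The Ebf1 peaks ranged from -0.85 to 0.81, and 43 of them lay within 0.5 of 0. The lowest, 101 kb into the gene, had 5.16 and 3.66 in old and 6.97 and 10.7 in young MSCs (limma adjusted p = 0.256). The highest, at 290 kb, had 15.5 and 18.6 in old and 8.96 and 9.50 in young MSCs (limma adjusted p = 0.161). Ebf1 lies on chromosome 11, whose 7156 peaks had a median log2 fold change of 0.098, against 0.018 for the 49 Ebf1 peaks. On that chromosome old replicate 2 lay above the young samples by a median of 0.16 and 0.20, and old replicate 1 by -0.0061 and 0.032. The part of chromosome 11 in the Ebf1 values was not tested.

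**Figure D5:**
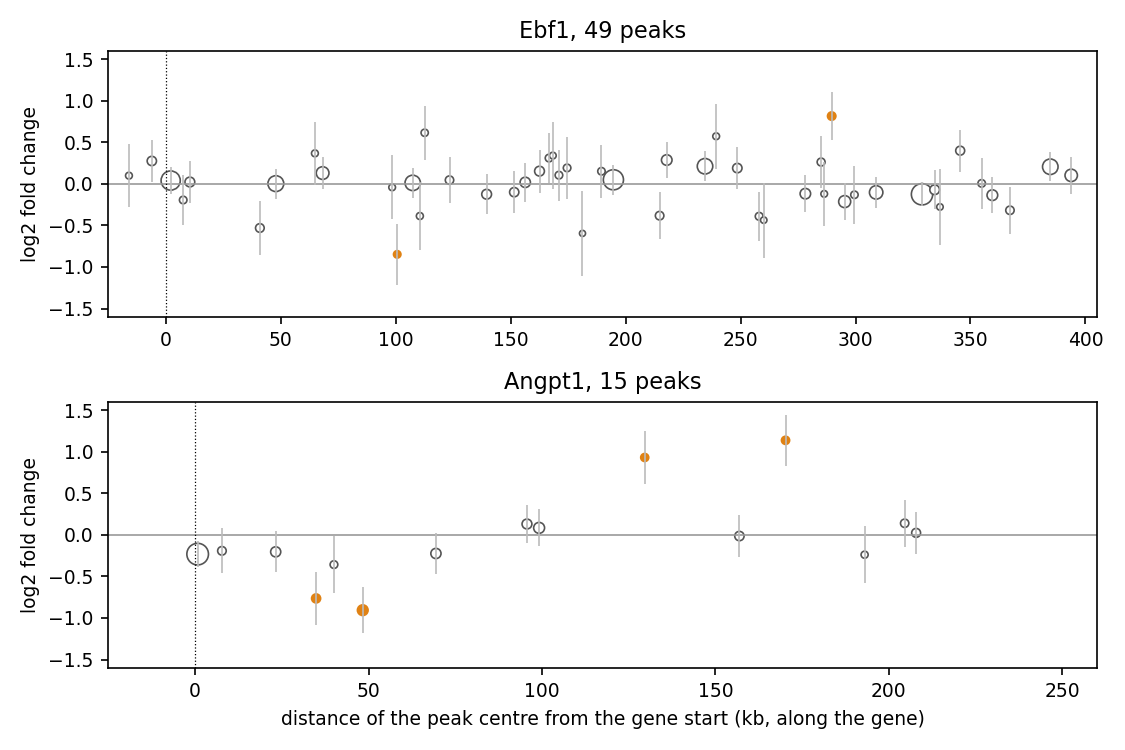
Log2 fold change of old over young MSCs (y axis, bars are ± 1 SE) against the distance of the peak centre from the gene start (x axis, kb) for Ebf1 (top) and Angpt1 (bottom); a larger symbol means a higher mean value, and filled symbols have an unadjusted p under 0.05. Most of the 49 Ebf1 peaks lie near 0, while Angpt1 has 2 filled peaks below 0 at 34.9 and 48.3 kb and 2 above 0 at 130 and 170 kb.

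When the peaks of each gene were summed, both old samples lay under both young samples at Ebf3 (605 and 468 against 663 and 644) and Grem1 (225 and 184 against 258 and 280). Both lay above at Lepr (62.8 and 65.3 against 46.8 and 57.0), Foxc1 (372 and 505 against 351 and 341) and Il7 (200 and 195 against 168 and 174). The other 5 genes overlapped. Over the 18075 protein-coding genes with a peak in the window, 25.4% had sums with both old samples below and 15.6% with both above.

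Other genes of the niche were counted by the same window. Of 24 further niche signals with 164 peaks, 0 peaks passed an adjusted p under 0.01, and 1 was lower and 1 higher at 0.05. The lower one was at Gas6, a ligand of TAM receptors, with 0.861 and 0.305 in old and 9.29 and 6.83 in young MSCs (log2 fold change -2.53, SE 0.44, limma adjusted p = 0.0153). Both old samples were under the floor of 3 counts there. The Gas6 peak is 300 bp wide and belongs to a run of 5 abutting peaks, which merged to a region with 561 and 545 in old and 676 and 638 in young MSCs (-0.25, SE 0.11, limma adjusted p = 0.272). The higher one was at Dlk1, a Notch-related inhibitor of fat cell formation, with 18.9 and 31.4 in old and 9.95 and 8.31 in young MSCs (1.33, SE 0.30, limma adjusted p = 0.0380). A list of 15 receptors held those of the members' ligands and also receptors for bone morphogenetic proteins, which Gremlin-1 antagonizes and no member encodes. Of its 96 peaks, 0 passed 0.01 and 1 was higher at 0.05. This peak was at Bmpr2, a receptor for bone morphogenetic proteins, with 10.8 and 14.3 in old and 2.99 and 2.67 in young MSCs (1.81, SE 0.36, limma adjusted p = 0.0231). Of 24 further stromal regulators with 302 peaks, 0 passed either threshold. The median log2 fold change was 0.013 over the further signals, 0.010 over the further regulators and -0.0028 over the receptors, each near the median over all peaks.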

How the data were processed

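ATAC-seq values of 2 old and 2 young MSC samples were analysed. The authors deposited 1 value per peak and sample, named RPKM and treated here as a score, because 100% of the values were whole multiples of 1 step per sample (tolerance 0.1 step) that did not depend on peak length. Per the study's methods, stated for hypoxia- and normoxia-cultured cells, reads were mapped to mm10 with bowtie2, duplicates were removed with Picard, and peaks came from chromstaR (bin size 300, step size 100, mapping quality 15). Processing of the old and young samples was not stated separately. The labels name Bowtie2, Picard and mm10.

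The values were divided by RLE factors, and log2(value + 1) was tested with limma 3.58.1 in R 4.3.3 (trended and robust moderation). Benjamini-Hochberg adjustment covered all 117282 peaks, with a threshold of 0.01, which the study used for accessibility in hypoxia- and normoxia-cultured cells, and no filter on low values. Fold changes with this pseudocount understate the change of weak peaks. Fits were tested on simulated data. The main fit used the scaled values, and counts recovered from the steps entered limma-voom as an alternative. An exact permutation test of 2 samples against 2 cannot go below p = 0.33, so limma's spread draws on all peaks. Positions came from GENCODE vM21 (GRCm38) and sequences from GRCm38 and RefSeq. The genes that matched promoter entries were Grem1, Lepr, Cxcl12, Ebf3, Kitl, Ebf1 and Foxc1, while Angpt1, Il7 and Vcam1 were not matched. Python 3.11.15, numpy 2.4.6, pandas 2.3.3, scipy 1.17.1 and matplotlib 3.10.9 were used.

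The members, the lists and the named-peak rule were chosen with earlier results of these data known. Named were each gene's start peaks, its densest peak, its peak of lowest unadjusted p, and in each direction the 6 largest differences among peaks with an unadjusted p under 0.05 and the same direction in all 4 pairs of samples, plus from the further lists the 3 genes with the lowest adjusted p. Other peaks given with values, such as the 1100 bp Kitl peak and the upstream peaks of Grem1 and Il7, were chosen after their values were seen. Alternatives covered scaling, pseudocount, a filter, moderation, limma-voom, a replicate block, thresholds, window size and leaving out each sample. Added after seeing the data were merging abutting peaks, leaving out Ebf1 and centring Ebf1 on chromosome 11.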

Additional observations from a re-analysis of the deposited data

How the results depend on the processing

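Quantile normalization, pseudocounts of 0.1 and 5, a filter that left 89 of the 109 peaks, plain moderation, limma-voom on recovered counts, upstream windows of 5 and 100 kb, merging of abutting peaks and leaving out Ebf1 each left 0 members called in either direction at an adjusted p under 0.01. With plain moderation no peak of the whole table passed, although 18137 had an unadjusted p under 0.05, 15 of them members. On the values as deposited 1 member was called higher, the median log2 fold change was -0.26 and 79.8% of members were lower, against 74.6% of all peaks; that fit called 1333 of all peaks lower and 52 higher, against 36 and 30 after RLE scaling. At an adjusted p under 0.05, 1 member was higher. With the replicate block, 1 member was higher at an adjusted p under 0.01, where 907 of all peaks were called lower and 362 higher. Same-numbered samples did not deviate together (r = -0.0993), so the numbers were not treated as pairs. In each of these the called member was the Kitl peak at 10.2 kb.
Leaving out each sample gave 0 to 8 lower and 0 to 4 higher members, a median of -0.053 to 0.0065 and a lower share of 47.7% to 53.2%. All 8 lower and 4 higher calls came without old replicate 1, where the whole table had 6388 lower and 3925 higher calls, and 1 and 1 without old replicate 2. These fits leave 1 old sample, assumed to vary like the young samples. Without old replicate 1, start peaks of Cxcl12, Foxc1, Ebf3 and Grem1 were among those called.
With no RLE scaling, the difference turned negative at the Cxcl12 start (-0.14), the Kitl peak at 50.1 kb (-0.14), the Lepr start (-0.17), the Foxc1 peak at 5.38 kb upstream (-0.17), the Ebf1 start (-0.25) and the Vcam1 peaks over exons (-0.23) and at the start (-0.25). Relative to chromosome 11 the Ebf1 start was at -0.059. Leaving out each sample, the range was -0.11 to 0.22 at the Vcam1 exon peak, -0.14 to 0.21 at the Vcam1 start, -0.37 to 0.58 at that Foxc1 peak, -0.16 to 0.24 at the Ebf1 start and -2.33 to 0.23 at the narrow Kitl peak next to the start. The causes were not tested. With 2 samples per age and peaks of few counts, differences near 1 on the log2 scale were often not detectable.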

Other observations

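By position, the 17 upstream members had a median log2 fold change of 0.22 and 35.3% of them a lower mean in old MSCs, against -0.0055 and 52.0% for the 75 intronic members, 46.8% lower for all members and 49.9% lower for all peaks. At an unadjusted p under 0.05, 5 upstream members were higher (at Lepr, Cxcl12, Il7 and Foxc1) and 2 lower (at Lepr and Grem1), where 7.49% of all peaks were higher and 8.87% lower. No test of the difference between positions was made.

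Ebf2, another member of the EBF family, held the further regulators' peak with the lowest adjusted p. The peaks in this paragraph were chosen after their values were seen. This peak of Ebf2 had 7.75 and 5.79 in old and 15.9 and 19.3 in young MSCs, with a log2 fold change of -1.27 (SE 0.30, limma adjusted p = 0.0502). A broad Ebf2 peak had 176 and 141 in old and 221 and 225 in young MSCs, a difference of -0.50 (limma adjusted p = 0.107). A peak at Pparg, the master regulator of fat cell formation, had 3.01 and 2.13 in old and 9.29 and 9.50 in young MSCs, a difference of -1.55 (limma adjusted p = 0.0502). At each of these the old samples lay below the young samples, and none passed the test. Other peaks of the further regulators went the other way. The next after the Pparg peak by adjusted p, at Twist2 and Nfia, were higher in old MSCs (limma adjusted p = 0.0524 and 0.056). Over the 302 peaks of that list, 21 were lower and 30 higher at an unadjusted p under 0.05, and the median log2 fold change was 0.010.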
